A study of Saccharomyces cerevisiae with 116 samples.

Results

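HH50 and HH115 are diploid lines of the budding yeast Saccharomyces cerevisiae that the labels call euploid, meaning that no chromosome was gained or lost. Their 6 libraries, from 3 colonies of each line, were set against the 2 libraries of HH ancestor run 2, so that 8 of the 116 libraries of the series were compared across all genes. The question was which expression differences from the ancestor the lines share and which belong to 1 line. Both lines descend from the homozygous HH ancestor, a derivative of the laboratory strain S288C that lacks active ho. The ancestor and both lines carry ade2 and lys2-801, the histidine allele his3-delta-D200, and the leu2-3.112 and ura 3-52 alleles. The lines had been carried for 2063 generations through 100 transfers of a single colony on rich glucose plates, 1 transfer every 48 h. RNA was taken from cultures at 30 °C in rich glucose medium, grown for 6 h after a 24 h preculture, and the labels place them in log phase by optical density. Each line is 1 lineage, and its 3 colonies carry the mutations of that lineage, so their spread is not that among lines. Lines are named X in the titles and ancestor run 2 is not, so that their link to 1 sequencing run is an assumption.

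In mutation accumulation, each transfer through a single cell keeps most new mutations whatever their effect on growth, so that every line collects its own. A yeast culture in glucose first ferments, with high expression of glycolytic enzymes, ribosome genes and purine synthesis genes. As glucose runs out it passes the diauxic shift, when genes of respiration, gluconeogenesis and the uptake of lactate and acetate are turned on.

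The stretches of genome upstream of 3 genes that carry the comparisons below, with the stretch shared by 1 divergent pair, are given first, read from RefSeq's R64 assembly (the build sacCer3 named by the submitters), 5′ to 3′ on the strand of the gene. Capitals mark the named motif on either strand, and every window but the last runs from 250 bases before to 50 bases after the first coding base. FIT2, encoding a cell wall mannoprotein that helps retain iron-carrying siderophores, and ZRT1, the high-affinity zinc transporter, lay above both ancestor libraries in all colonies. ADE5,7, an enzyme of purine synthesis, was among the genes lowest in colonies 1 and 2 of both lines. YIG1 and CSM4 are neighbours read in opposite directions, and both were many-fold higher in those colonies.
FIT2 (chrXV:1059281-1059580, + strand, TGCACCC in capitals): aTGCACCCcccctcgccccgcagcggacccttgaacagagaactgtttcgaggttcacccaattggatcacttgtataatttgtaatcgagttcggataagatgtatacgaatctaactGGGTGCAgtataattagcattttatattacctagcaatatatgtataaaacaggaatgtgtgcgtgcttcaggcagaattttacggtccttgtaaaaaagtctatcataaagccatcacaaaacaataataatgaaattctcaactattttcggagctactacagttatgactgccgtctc
ZRT1 (chrVII:20728-21027, + strand, ACCTT and AAGGT around any base, in capitals): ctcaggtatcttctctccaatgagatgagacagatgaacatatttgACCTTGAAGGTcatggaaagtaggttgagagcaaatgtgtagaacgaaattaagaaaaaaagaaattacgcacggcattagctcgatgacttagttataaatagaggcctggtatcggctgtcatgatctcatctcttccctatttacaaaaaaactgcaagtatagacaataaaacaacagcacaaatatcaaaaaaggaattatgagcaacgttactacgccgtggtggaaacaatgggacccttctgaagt
ADE5,7 (chrVII:56232-56531, + strand, TGACTC in capitals): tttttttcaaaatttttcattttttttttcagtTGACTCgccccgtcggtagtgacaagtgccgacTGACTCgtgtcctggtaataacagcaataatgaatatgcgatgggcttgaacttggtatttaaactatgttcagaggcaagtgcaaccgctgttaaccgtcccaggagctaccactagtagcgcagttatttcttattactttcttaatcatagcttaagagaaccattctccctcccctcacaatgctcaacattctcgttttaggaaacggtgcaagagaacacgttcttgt
YIG1 to CSM4 (chrXVI:171170-171469, + strand, CCAAT and GGCGGC in capitals): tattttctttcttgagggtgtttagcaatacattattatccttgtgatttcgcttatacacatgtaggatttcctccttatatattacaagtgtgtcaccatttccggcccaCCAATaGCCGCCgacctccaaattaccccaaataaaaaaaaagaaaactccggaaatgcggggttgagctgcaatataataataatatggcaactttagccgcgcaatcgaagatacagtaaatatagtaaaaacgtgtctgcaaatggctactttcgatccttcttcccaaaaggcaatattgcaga
TGCACCC, the core bound by the iron factor Aft1, occurs 2 times upstream of FIT2 and in 1.3% of 6007 windows of the same length. The element of the zinc factor Zap1, ACCTT and AAGGT with any base between, occurs 1 time upstream of ZRT1 and in 0.0832% of windows. It was added to the motifs searched after seeing the data. TGACTC, the core of Gcn4, occurs 2 times upstream of ADE5,7 and in 7.97% of windows. Between the first coding bases of YIG1 and CSM4 lie 328 bases, of which the middle stretch is printed, with 1 CCAAT (Hap core, in 43.3% of windows) and 1 GGCGGC (Ume6 core, in 5.14%). None of these matches overlaps a match of another of the 12 motifs searched, and a match describes the sequence only.

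Libraries of a line did not lie together. Reads in genes numbered 5062829 to 9227394 in the 6 line libraries and 6994010 and 8466624 in the ancestor libraries. Across the 6078 genes tested, log2 CPM (counts scaled to library size) of replicate 3 of HH50 correlated with the ancestor libraries at r = 0.973 and 0.979 and with the other HH50 colonies at 0.878 and 0.88, a description across genes that are not independent. Replicate 3 of HH115 did the same, at r = 0.959 and 0.944 with the ancestor and 0.88 and 0.86 with its own line. The first principal component, 56.0% of the variance, put replicates 1 and 2 of HH50 at -41.04 and -44.75 and those of HH115 at -26.25 and -17.90, and it put replicates 3 at 28.46 and 38.18 beside the ancestor libraries at 27.95 and 35.36. In HH50, 1123 genes (18.5%) differed at least 2-fold between replicate 3 and each of the other 2 colonies, and in HH115 807 genes (13.3%) did. Replicates 1 and 2 differed at least 2-fold from each other in 349 genes in HH50 and 536 in HH115, and the ancestor libraries in 254. The share of reads that did not align uniquely was 22.58%, 18.66% and 39.97% in HH50 and 18.59%, 19.47% and 68.39% in HH115, against 33.90% and 40.36% in the ancestor. Replicates 3 and the ancestor libraries are thus the libraries with the larger shares. A fit with this share as a covariate called 1 gene in HH50 against the ancestor. It called 0 in HH115, in both lines together and between the lines. The part of the share in the results was not otherwise tested. All comparisons are given with all 8 libraries first.

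Marker genes of late growth, fixed as a list of 13 with members such as SIP18, HSP12, ADH2, PCK1 and JEN1, followed the same split as a sum. A sum weighs its most abundant members most, and single members need not follow it. In ADH2 the sign of the difference of both lines from the ancestor turned when HH115 replicate 2 was left out. The summed level of the 13 markers was 12096, 13313 and 4221 CPM in HH50 and 27505, 25684 and 4004 CPM in HH115, against 6665 and 5758 CPM in ancestor run 2. Replicates 1 and 2 of each line were thus above both ancestor libraries and replicates 3 below both. No late-growth marker was at 0 in any of the 8 libraries, and the part of these markers in the results was not tested. In bulk RNA, more cells in late growth and more such RNA per cell cannot be told apart. Ancestor run 1, a further 3 libraries of the same ancestor, held 53369, 34164 and 38739 CPM, more than every library of the lines. The 10 markers of sporulating cells summed to 258.9 to 328.4 CPM in HH50, 320.2 to 1228 CPM in HH115 and 328.4 and 488.1 CPM in the ancestor, with HH115 replicate 2 the highest. Haploid-specific genes, which a diploid represses, summed to 238 to 264 CPM in HH50, 224 to 321 CPM in HH115 and 223 and 221 CPM in the ancestor, and no marker of either list was at 0.

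**Figure D1:**
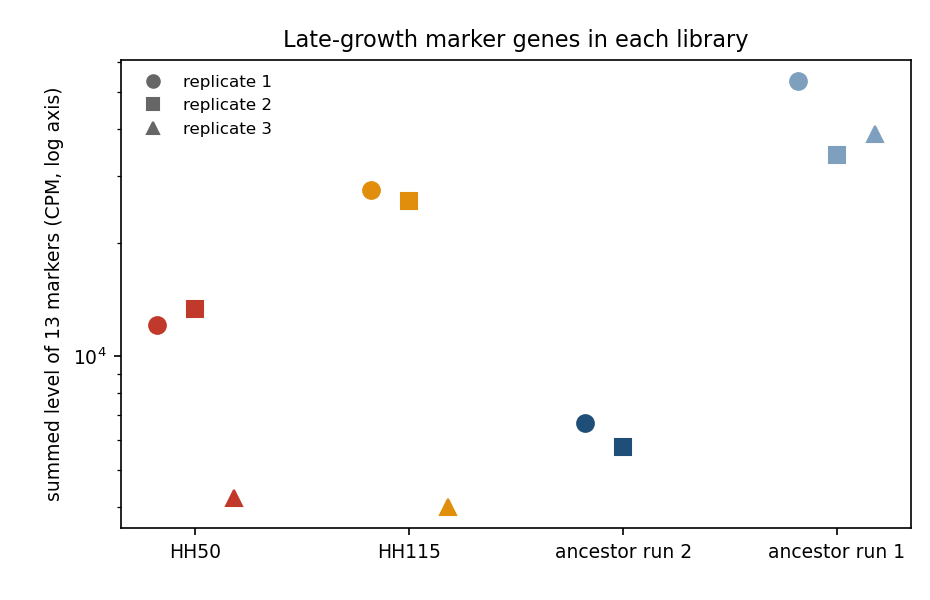
Summed CPM of 13 late-growth marker genes in each library (log axis), by group, with 1 symbol per replicate number. Replicates 3 of HH50 and HH115 lie at 4221 and 4004 CPM, below the ancestor run 2 libraries, while replicates 1 and 2 lie at 12096 to 27505 CPM and the ancestor run 1 libraries above those.

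Set against ancestor run 2 with all 8 libraries, neither line showed a gene past the threshold. In edgeR's quasi-likelihood test with Benjamini-Hochberg adjustment, 0 of 6078 genes (0%) were called in HH50 minus ancestor, with 701 at an unadjusted p under 0.05. HH115 minus ancestor gave 0 (0%) with 228 such genes, both lines together 0 (0%) with 459, and HH50 minus HH115 0 (0%) with 270. The smallest adjusted p was 0.4244, 0.831, 0.5548 and 0.8549 in that order of comparisons by edgeR. Shared and private genes, defined by these calls, number 0 in this fit. DESeq2 called 11 (0.182%), 4 (0.0662%), 6 (0.0993%) and 10 genes (0.165%), and limma-voom 0. The 2 genes that DESeq2 called in both lines in the same direction were FIT2, higher, and TSA2, lower (both named after their values were seen). Setting replicates 3 aside gave 1899, 597, 1605 and 13 calls by edgeR.

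With the replicate number as a block and all 8 libraries kept, edgeR called 1842 genes (30.3%) in HH50, 761 (12.5%) in HH115, 1627 (26.8%) in both lines and 0 (0%) between the lines, with 719 shared. No ancestor library is numbered 3, so that fit has no ancestor library in the block of replicates 3. The level of replicates 3 against the ancestor therefore does not enter its comparisons with the ancestor. The sample titles also end in a number, by which the second ancestor library goes with replicates 3 and not with replicates 2 of the lines. A block by that ending (added after seeing the data) gave 0 (0%) in all 4 comparisons, with 856, 324, 621 and 379 genes at an unadjusted p under 0.05. The counts thus depend both on the libraries kept and on the model.

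A count that includes replicates 3 on the same footing is that of genes in which every colony lay on 1 side of both ancestor libraries. All 6 line libraries were above both ancestor libraries in 407 genes (6.70% of those tested) and below both in 344 (5.66%). The 3 HH50 colonies alone were above both in 994 genes (16.4%) and below both in 883 (14.5%), and the 3 HH115 colonies in 683 (11.2%) and 644 (10.6%). These counts were not set against a random order of the libraries. The 10 genes with the widest gap in each direction, at a mean of at least 10 CPM, were chosen after their values were seen, and no test is given for them. Of the 10 in the upper list, 7 belong to metal uptake.

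FIT2 had 899.9, 719 and 254 CPM in HH50 and 546, 665 and 94.8 CPM in HH115, against 32.8 and 27.4 CPM in the ancestor. Its lowest line library was above the higher ancestor library by over 2-fold, 1 of only 2 genes (0.0329% of those tested) with such a gap. FIT3, its neighbour on chromosome XV and a mannoprotein of the same role, had 138, 341 and 397 CPM in HH50, 269.9, 582 and 182 CPM in HH115 and 60.0 and 82.6 CPM in the ancestor. Both genes come from a list chosen with all 6 line libraries above the ancestor, so replicates 3 share this direction by that choice. SIT1, a siderophore transporter, was the other gene with a gap above 2-fold and had 73.2, 202 and 52.6 CPM in HH50 and 137, 209.5 and 42.0 CPM in HH115, against 19.9 and 19.5 CPM in the ancestor. ARN1, a further siderophore transporter, had 525, 427 and 316 CPM in HH50 and 572, 611 and 299 CPM in HH115, against 198 and 155 CPM in the ancestor. Of the 25 genes of the iron regulon tested, 12 had all 6 colonies above both ancestor libraries and 0 had them below. FET3, the iron oxidase of high-affinity uptake, and FRE1, the surface reductase of iron and copper, were among the 12. Over all genes tested the shares were 6.70% above and 5.66% below. The median difference of both lines from the ancestor over the 25 was 0.54 on the log2 scale, beside 0.03 over all genes tested, and 0 of the 25 passed the test. TGCACCC was found in the windows of 11 of the 25.

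Zinc and copper genes lay the same way. ZRT1 had 6695, 5044 and 4351 CPM in HH50 and 8529, 8588 and 3127 CPM in HH115, against 1949 and 1324 CPM in the ancestor. ZRT3, which releases zinc from the vacuole, had 822, 553 and 573 CPM in HH50 and 848, 928 and 342 CPM in HH115, against 306 and 220.1 CPM in the ancestor. ZAP1, the factor that turns both on when zinc is short, had 121, 110.0 and 159 CPM in HH50, 130.3, 183 and 116 CPM in HH115 and 67.8 and 95.2 CPM in the ancestor, so that its groups do not overlap either. CTR1, the high-affinity copper transporter, had 417, 1403 and 99.2 CPM in HH50 and 157, 327 and 82.0 CPM in HH115, against 50.0 and 49.0 CPM in the ancestor. In 5 of the 17 copper and zinc genes tested all colonies lay above both ancestor libraries, as did 6.70% of all genes tested. The median difference of the 17 was 0.62 on the log2 scale, and 0 of them passed the test.

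Ancestor run 1 lay with the lines in some of these genes and with run 2 in others. Its levels, and those of other lines, are CPM of reads in genes without the TMM (trimmed mean of M-values) factors of the 8 libraries, which lie between 0.897 and 1.048. FIT2 had 341, 601 and 860.3 CPM in run 1, within the range of the lines, and ZRT1 had 10068, 6693 and 6781 CPM. In 15 libraries of the 5 other HH lines named X, which are aneuploid, FIT2 spanned 6.89 to 1100 CPM with a median of 124. With run 1 in place of run 2 the difference of both lines in FIT2 was -0.46 on the log2 scale, beside 4.11 against run 2, and FIT2 was lower in the 9 euploid lines named SC than in their own ancestor run 1 by 1.45 on the log2 scale (adjusted p = 0.01835, edgeR), 1 of 4 genes called there of 6008 (0.0666%). The level of FIT2 thus differed between the 2 runs of the ancestor by more than between these lines and run 1. ARN1 and FRE1 behaved otherwise, since run 1 had 190.2, 215 and 211 CPM in ARN1 and 49, 42.9 and 61.1 CPM in FRE1, below all 6 line libraries in both genes.

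**Figure D2:**
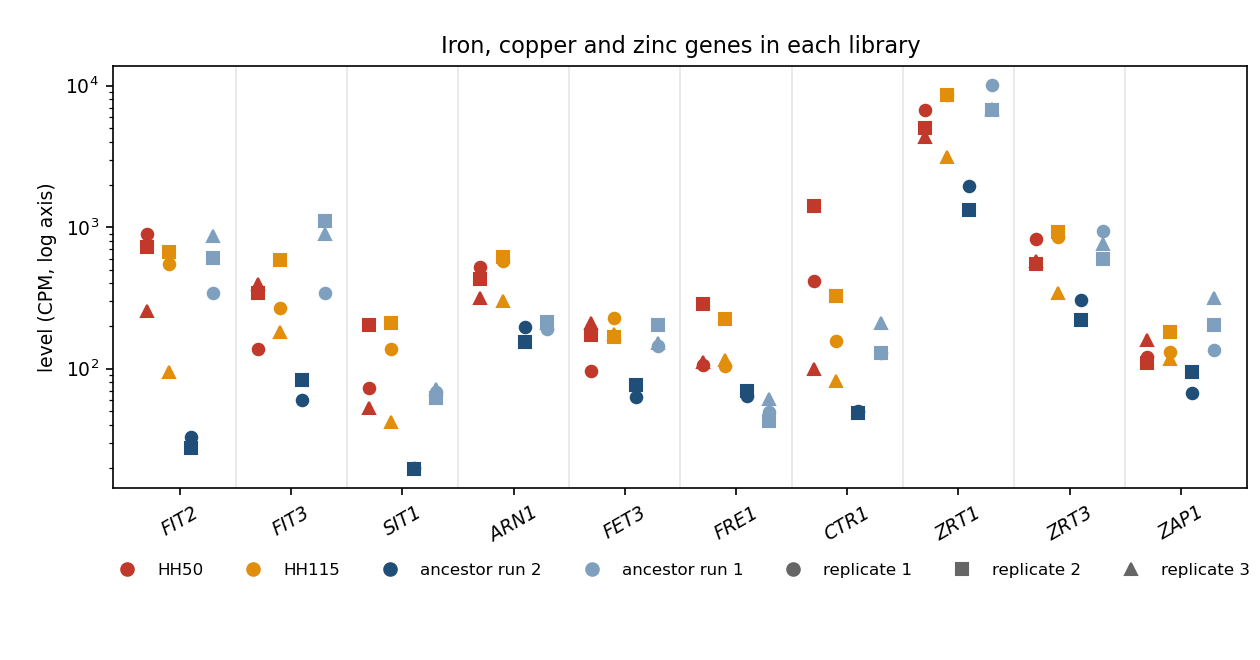
Level in CPM (log axis) of iron, copper and zinc genes in every library of HH50, HH115 and both runs of the ancestor, with 1 symbol per replicate number. All 6 line libraries lie above both ancestor run 2 libraries in each gene, while ancestor run 1 overlaps the lines in FIT2, FIT3, SIT1, FET3, CTR1, ZRT1, ZRT3 and ZAP1.

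Other genes of the upper list were MAM33, encoding a mitochondrial matrix protein, ATG41 of autophagy, and SAS5 of a histone acetylase. SAS5 varied least, with 103, 104 and 69.2 CPM in HH50 and 91.7, 70.1 and 70.0 CPM in HH115, against 46.6 and 44.0 CPM in the ancestor. MAL33, which activates maltose genes, had 124, 187 and 78.3 CPM in HH50 and 149, 156 and 48.9 CPM in HH115, against 36.2 and 32.8 CPM in the ancestor. Nuclear genes for proteins of the mitochondrial ribosome lay above both ancestor libraries in all colonies in 32 of 70 tested and below in 0. Of all genes tested 6.70% lay above and 5.66% below. RSM19 of its small subunit had 75.2, 69.9 and 56.4 CPM in HH50 and 50.6, 43.3 and 60.5 CPM in HH115, against 32.3 and 27.5 CPM in the ancestor. With ancestor run 1 in place of run 2 the log2 difference of both lines was -0.086 in RSM19, -0.49 in MRPL6 of the same ribosome, -0.087 in SAS5, -0.69 in MAM33 and -0.0051 in ATG41, so its sign turned. MAL33 kept its sign at 0.32.

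Stress and reserve carbohydrate genes were among the 10 of the lower list. TSA2, a peroxiredoxin, had 158, 89.0 and 134 CPM in HH50 and 133, 108 and 121 CPM in HH115, against 336 and 273 CPM in the ancestor. CTT1, the cytosolic catalase, had 75.9, 70.3 and 96.3 CPM in HH50 and 76.9, 116 and 92.3 CPM in HH115, against 165 and 285 CPM in the ancestor. Genes of this list were chosen with all colonies below both ancestor libraries, so replicates 3 share this side by that choice. RTC3, a stress-induced gene, had 159, 101 and 128 CPM in HH50 and 214, 184 and 136 CPM in HH115, against 346 and 414 CPM in the ancestor. TPS1, which makes trehalose phosphate, had 872, 705 and 773 CPM in HH50 and 737, 825 and 749 CPM in HH115, against 1272 and 1265 CPM in the ancestor. In 7 of the 17 trehalose and glycogen genes all colonies lay below both ancestor libraries (5.66% of all genes tested did) and in 0 above, TSL1, TPS3 and GSY2 included, and the median difference was -0.59 on the log2 scale. With ancestor run 1 in place of run 2 the difference was 0.50 in TSL1, 0.64 in TPS3, 0.36 in GSY2 and 1.15 in CTT1, with the sign turned, and -0.32 in TPS1, -0.92 in RTC3 and -0.015 in TSA2. General stress genes had 8 of 57 below and 0 above, with a median difference of -0.13. Without replicates 3, 10 of these 57 were called higher and 3 lower in both lines together, and their median difference was 0.055. Over all genes, 12.8% were called higher and 13.8% lower in that comparison. By the count with all colonies, glycolysis with ethanol formation had 10 of 21 below and 0 above. Ergosterol synthesis had 7 of 24 below and 0 above.

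ANB1, the form of translation factor eIF5A made without oxygen, had 5.25, 2.65 and 9.51 CPM in HH50 and 2.65, 3.03 and 10.1 CPM in HH115, against 38.5 and 19.5 CPM in the ancestor. SSA1, a cytosolic Hsp70 chaperone, had 604, 734 and 743 CPM in HH50 and 760.4, 847 and 841 CPM in HH115, against 1274 and 1316 CPM in the ancestor. These levels separate the groups in each of the 8 libraries. Helpers of protein folding in the endoplasmic reticulum were below both ancestor libraries in all colonies in 7 of 15 genes and above in 0. Their median difference was -0.58, and of all genes tested 5.66% lay below and 6.70% above. EUG1, a disulfide isomerase, had 44, 36 and 62 CPM in HH50 and 60.9, 64.2 and 72.5 CPM in HH115, against 95.2 and 97.0 CPM in the ancestor. CLN1, a G1 cyclin, had 15.3, 12.1 and 27.1 CPM in HH50 and 24.6, 40.7 and 40.1 CPM in HH115, against 104 and 49.4 CPM in the ancestor. RNR1, the large subunit of ribonucleotide reductase, had 15.0, 25.3 and 38.2 CPM in HH50 and 20.9, 25.4 and 47.6 CPM in HH115, against 146 and 52.8 CPM in the ancestor. The ancestor libraries differ more than 2-fold from each other in CLN1 and RNR1. In ancestor run 1 CLN1 was at 10.5, 17.5 and 12.7 CPM and TSA2 at 115, 89.2 and 113 CPM, so that run 1 was on the side of the lines.

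With replicates 3 set aside, the 4 remaining line libraries were compared with the ancestor as a description of colonies 1 and 2, since the libraries were set aside because they lay with the ancestor. Of 6045 genes tested, 936 (15.5%) were called higher and 963 (15.9%) lower in HH50, 31.4% in all. In HH115 296 (4.90%) were called higher and 301 (4.98%) lower, 9.88% in all, and in both lines together 1605 (26.6%) were called. Both lines were called in the same direction in 508 genes, 241 higher and 267 lower, and in opposite directions in 0. These comparisons share both ancestor libraries. Among the genes with the largest differences in the higher direction were YIG1, CSM4, JEN1, SFC1, IDP2 and HXT6.

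YIG1, an inhibitor of glycerol synthesis, had 608, 854 and 13.2 CPM in HH50 and 335, 324 and 8.94 CPM in HH115, against 5.97 and 9.74 CPM in the ancestor. Its neighbour CSM4, needed for telomere movement in meiosis, had 46.4, 62.1 and 3.26 CPM in HH50 and 50.4, 65.1 and 1.14 CPM in HH115, against 1.99 and 1.43 CPM in the ancestor. The pair in the shared stretch printed above thus moved together between colonies of 1 line. JEN1, the lactate and pyruvate transporter, had 1095, 1807 and 76.0 CPM in HH50 and 944, 2029 and 49.9 CPM in HH115, against 77.5 and 55.7 CPM in the ancestor. IDP2, a cytosolic isocitrate dehydrogenase, had 897, 1711 and 111 CPM in HH50 and 1275, 909 and 79.3 CPM in HH115, against 96.0 and 76.2 CPM in the ancestor. SFC1, a mitochondrial carrier of succinate and fumarate, followed with 116, 389 and 10.4 CPM in HH50 and 408, 157 and 9.32 CPM in HH115, against 10.3 and 14.9 CPM in the ancestor. In none of these genes did replicate 3 of either line reach even the lowest of replicates 1 and 2. HXT6, a high-affinity glucose transporter, belongs to the same list, but its reads may be shared with the near-identical HXT7.

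Low in the same colonies were ENO2, GPP1, ADE5,7, IMD2, INA1, MAE1, BAT1 and FRM2. ENO2, an enolase of glycolysis, had 1368, 533 and 11654 CPM in HH50 and 958, 2499.5 and 10173 CPM in HH115, against 12504 and 15186 CPM in the ancestor. ADE5,7 had 56.7, 90.8 and 658 CPM in HH50 and 87.4, 138 and 697 CPM in HH115, against 696 and 918 CPM in the ancestor. IMD2, an IMP dehydrogenase of guanine nucleotide synthesis, had 28.5, 16.6 and 117 CPM in HH50 and 21.6, 16.5 and 263 CPM in HH115, against 229 and 675 CPM in the ancestor. Again replicates 3 lay nearer to the ancestor than to their own line. BAT1, a branched-chain aminotransferase of mitochondria, had 86.8, 167 and 1108 CPM in HH50 and 138, 83.1 and 1057 CPM in HH115, against 894 and 752 CPM in the ancestor. The 3 Ty1 reading frames, YBR012W-B, YBL005W-B and YNL284C-B, were in the lower list, with uncertain values because Ty copies are near-identical.

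Gene lists show the same split by colony. Genes of the respiratory chain and ATP synthase (34 tested) had a median log2 difference from the ancestor mean of 2.70, 2.60 and 0.17 in the HH50 libraries and 2.54, 1.54 and -0.03 in the HH115 libraries. COX5A, a subunit of cytochrome oxidase, had 2053, 2672 and 214 CPM in HH50 and 1798, 1120.5 and 194 CPM in HH115, against 264 and 134 CPM in the ancestor. Without replicates 3, 33 of the 34 were called higher and 0 lower in both lines together, where 12.8% of all genes were called higher and 13.8% lower. The citric acid cycle had 11 of 14 called higher and gluconeogenesis with the glyoxylate cycle 12 of 14, and none of either was called lower. ADY2, an acetate transporter, was mainly high in HH115, with 53.1, 18.0 and 7.56 CPM in HH50 and 437, 3569 and 6.85 CPM in HH115, against 12.2 and 16.2 CPM in the ancestor. Peroxisomal fatty acid oxidation (18 tested) had its highest median, 2.16, in HH115 replicate 2, and the other line libraries lay between -0.27 and 0.74.

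Purine synthesis (21 tested) had medians of -1.95, -1.31 and -0.05 in HH50 and -1.48, -1.19 and -0.20 in HH115. Without replicates 3, 11 of its genes were called lower and 0 higher in both lines together. Of all genes, 13.8% were called lower and 12.8% higher in that comparison. The shared genes also held 11 of the 21. TGACTC was found in the windows of 13 of the 21. Ribosome biogenesis (120 tested) had 58 lower and 0 higher in the same comparison. Of its windows, 110 of 120 held GATGAG, the core of the PAC element, found in 20.4% of all windows. Its medians were -0.94, -0.82 and 0.27 in HH50 and -0.31, -0.71 and 0.52 in HH115, so that replicates 3 lay above the ancestor. Cytosolic ribosomal proteins (134 tested) ranged from -0.999 in HH50 replicate 2 to 0.74 in HH115 replicate 3, on either side of the ancestor within each line. With all 8 libraries, 0 members of the 46 lists passed the test.

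**Figure D3:**
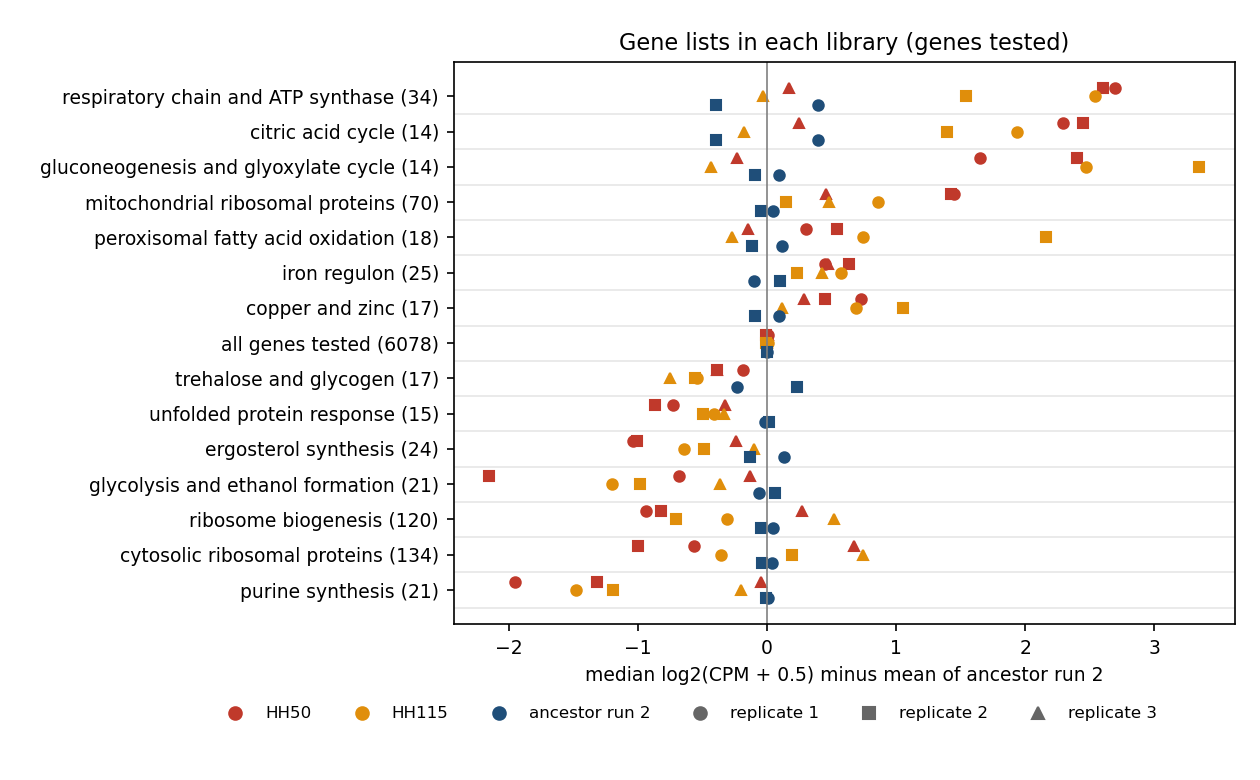
Median over each list of log2(CPM + 0.5) minus the mean of ancestor run 2, per library, with the number of genes tested in brackets; HH50, HH115 and ancestor run 2 run from top to bottom in each row. Replicates 3 (triangles) lie near 0 in the respiratory, gluconeogenic and purine lists, where replicates 1 and 2 reach 2.70, 3.35 and -1.95, while the iron, copper and zinc lists are above 0 in all 6 line libraries.

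The 508 genes shared by colonies 1 and 2 are given in every library as a description. Replicates 1 and 2 of both lines and run 2 chose these genes, replicates 3 were set aside because they lay with the ancestor, and all values share the run 2 baseline. The 241 higher genes had a median log2 difference from ancestor run 2 of 1.79 and 1.87 in HH50 replicates 1 and 2 and 1.69 and 1.60 in those of HH115, but 0.18 and -0.03 in replicates 3. In ancestor run 1 the same genes had medians of 2.00, 1.84 and 1.97. The 267 lower genes had medians of -0.07 in HH50 replicate 3 and 0.06 in HH115 replicate 3, against -1.65, -1.32 and -1.49 in run 1. Over the higher genes the medians of colonies 1 and 2 thus overlap those of run 1. Among the 5 other lines named X, replicates 3 of HH29, HH112, HH117 and HH123 had medians of -0.25 to 0.29 over the higher genes, and replicates 1 and 2 of HH29, HH117 and HH123 had 1.19 to 1.96. All 3 libraries of HH152 lay between -0.59 and 0.33, and HH112 had -0.50 in replicate 1 and 1.84 in replicate 2. Over the higher genes replicate 3 thus lay between -0.59 and 0.29 in each of the 7 lines named X, and replicate 1 of HH112 and replicates 1 and 2 of HH152 lay low as well. In the 9 euploid lines named SC set against run 1, the higher genes had a median difference of -0.13 and the lower genes of 0.10, against 0.00 over all genes. With run 1 in place of run 2, edgeR called 70 (1.16%), 197 (3.27%) and 375 (6.23%) genes in HH50, HH115 and both lines, 55 of them shared.

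**Figure D4:**
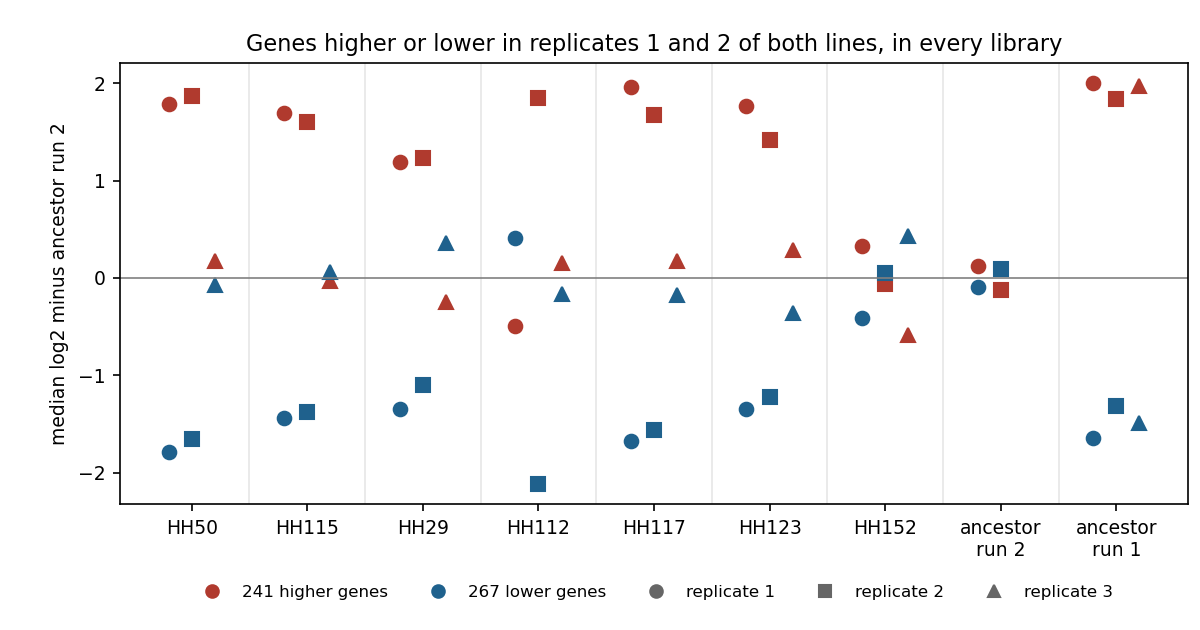
Median log2 difference from ancestor run 2 over the 241 genes higher (red) and the 267 genes lower (blue) in replicates 1 and 2 of HH50 and HH115, in every HH library named X and in both ancestor runs. The genes were chosen on replicates 1 and 2 of HH50 and HH115; all 3 ancestor run 1 libraries lie at 1.84 to 2.00 and at -1.65 to -1.32.

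HH50 and HH115 were compared directly to find private genes. With all 6 line libraries, every HH50 colony was above every HH115 colony in 193 genes (3.18%) and below in 229 (3.77%). The 3 HH50 colonies lay above all other 5 libraries in 71 genes (1.17%) and below all in 118 (1.94%). The 3 HH115 colonies lay above the other 5 in 52 genes (0.856%) and below in 67 (1.10%). The lines lay on opposite sides of both ancestor libraries in 8 genes, with HH50 above in 3 (0.0494%) and HH115 above in 5 (0.0823%). None of these counts was set against that of a random order of the libraries, so they do not show by themselves that the lines differ. The genes named from these lists were chosen after their values were seen. CTS1, SCW11, DSE1, DSE2 and AMN1, given next, are among them, and none was called by edgeR between the lines with all 8 libraries.

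CTS1, the chitinase that separates mother and daughter, had 104.6, 97.7 and 147 CPM in HH50 and 561, 669 and 262 CPM in HH115, beside 219 and 369 CPM in the ancestor. SCW11, a glucanase of the same step, had 38.0, 26.8 and 37.7 CPM in HH50 and 135, 166 and 87.5 CPM in HH115, beside 51.9 and 106 CPM in the ancestor. In both genes the HH50 colonies are the 3 lowest of the 8 libraries, and replicate 3 of HH115 is the lowest of that line. DSE2, a daughter-cell glucanase, had 45.6, 36.3 and 68.3 CPM in HH50 and 244, 292 and 119 CPM in HH115, beside 86.3 and 184 CPM in the ancestor. DSE1, a daughter-cell gene of cell separation, had 30.2, 24.7 and 48.0 CPM in HH50 and 147, 232 and 61.5 CPM in HH115, beside 53.3 and 113 CPM in the ancestor. AMN1, which ends the mitotic exit programme in daughters, had 20.1, 23.4 and 26.3 CPM in HH50 and 57.2, 57.2 and 44.5 CPM in HH115, beside 22.5 and 48.8 CPM in the ancestor. The ancestor libraries overlap HH115 and lie above HH50 in CTS1, DSE1 and DSE2, and 1 of them lies among the HH50 colonies in AMN1. HH50 minus HH115 was -2.10 ± 0.43 (SE) in CTS1 and -1.92 ± 0.35 in SCW11 on the log2 scale, each with an adjusted p of 0.8549 by edgeR over all 6078 genes. Of the 38 cell wall genes tested, 9 had all HH50 colonies below all HH115 colonies and 0 above. Of all genes tested 3.77% lay below and 3.18% above. In ancestor run 1 CTS1 was at 82.5, 60.7 and 72.7 CPM, and the 5 other lines named X spanned 29.2 to 1140 CPM.

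CWP1, a cell wall mannoprotein, separated the lines with little spread, at 19.7, 18.1 and 19.8 CPM in HH50 and 40.3, 40.6 and 43.8 CPM in HH115, below the 83.6 and 50.4 CPM of the ancestor in both. PCL1, a G1 cyclin of the kinase Pho85, had 3.30, 5.54 and 9.12 CPM in HH50 and 14.4, 28.5 and 43.6 CPM in HH115, beside 64.8 and 24.6 CPM in the ancestor. KAR4, a factor of mating and meiosis, had 35.1, 30.0 and 38.8 CPM in HH50 and 51.8, 66.5 and 52.5 CPM in HH115, beside 54.0 and 50.5 CPM in the ancestor, where HH115 and the ancestor overlap and HH50 stands below. YDL218W, a gene without a name in the annotation, was lowest in HH50 at 9.91, 3.91 and 12.8 CPM, and HH115 had 55.7, 697 and 25.9 CPM beside 68.5 and 44.7 CPM in the ancestor.

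**Figure D5:**
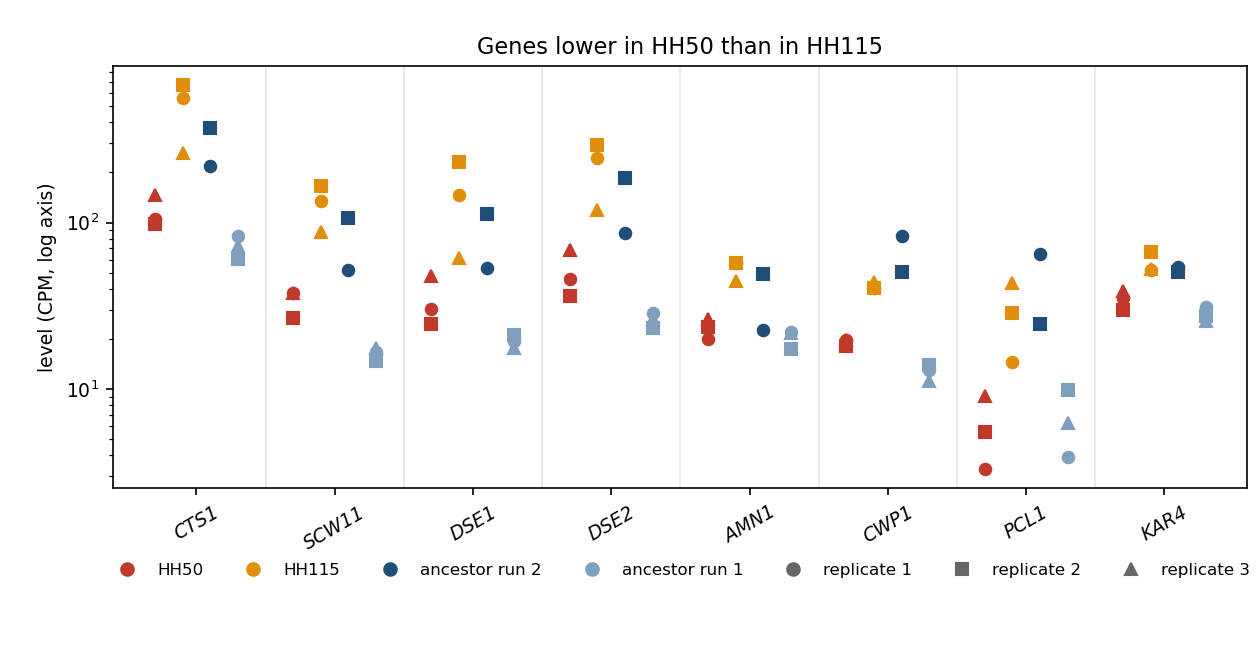
Level in CPM (log axis) of 8 genes in every library of HH50, HH115 and both ancestor runs, with 1 symbol per replicate number. The 3 HH50 libraries lie below the 3 HH115 libraries in each gene, and ancestor run 1 lies near or below HH50.

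Higher in HH50 than in the other 5 libraries were PFK27, XDJ1, SMP1 and HSP60 among others. PFK27, which makes the glycolytic activator fructose 2,6-bisphosphate, had 364, 311 and 134 CPM in HH50 and 97.3, 33.5 and 90.4 CPM in HH115, beside 100.4 and 114 CPM in the ancestor. XDJ1, a chaperone of the DnaJ family, had 113, 138 and 75.7 CPM in HH50 and 61.7, 33.6 and 60.3 CPM in HH115, beside 50.1 and 51.0 CPM in the ancestor. SMP1, a MADS-box factor, had 135, 91.3 and 77.4 CPM in HH50 and 60.7, 54.2 and 52.3 CPM in HH115, beside 45 and 50.4 CPM in the ancestor. HH115 lay near the ancestor in XDJ1 and SMP1. RAD54 and RAD16, of DNA repair, were above every HH115 colony in HH50, with RAD54 at 127, 169 and 74.9 CPM in HH50 and 69.8, 58.3 and 62.6 CPM in HH115, beside 62.2 and 69.5 CPM in the ancestor. In 4 of the 16 DNA damage genes tested HH50 lay above HH115 in this way and in 1 below. The shares over all genes tested were 3.18% above and 3.77% below.

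Lower in HH115 than elsewhere were PAU23, HOS4, ZWF1, CUE2 and GLC3. PAU23, a seripauperin, had 14.6, 14 and 19.9 CPM in HH50 and 8.60, 8.93 and 8.37 CPM in HH115, beside 15.9 and 15.5 CPM in the ancestor, with uncertain reads because the family is near-identical. HOS4, a subunit of a histone deacetylase complex, had 381, 419 and 215 CPM in HH50 and 143, 155 and 177 CPM in HH115, beside 262 and 254 CPM in the ancestor. COX5B, the low-oxygen form of a cytochrome oxidase subunit, lies next to HOS4 (chrIX:151595-154846 and chrIX:155222-155765) and had 487, 463 and 198 CPM in HH50 and 138, 124 and 189 CPM in HH115, beside 287 and 295 CPM in the ancestor. Both neighbours were lowest in HH115, and HH50 was above the ancestor only in replicates 1 and 2. ZWF1, the first enzyme of the pentose phosphate path, had 788, 893 and 744 CPM in HH50 and 409, 429 and 570.4 CPM in HH115, beside 676 and 875 CPM in the ancestor. SGE1, URA1 and MLC2 were among the 8 genes named as highest in HH115, each by less than 2-fold.

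Without replicates 3 the direct test called 13 genes between the lines (0.215%), 4 higher (0.0662%) and 9 lower (0.149%) in HH50, by edgeR with adjusted p from 0.03699 in CTS1, DSE2, TIR2, BSC1, CPS1, DAL7, YLR285C-A and COX5B to 0.0427 in DSE1, GIN4 and SOL3. Of these, 10 were private to HH50 and 1 private to HH115. The 10 private to HH50 were GIN4, TIR2 and BSC1, higher, and CTS1, DSE1, DSE2, CPS1, DAL7, SOL3 and YLR285C-A, lower, and COX5B was private to HH115. YLR285C-A lies beside CTS1 on the same strand and had the same pattern, so reads of 1 transcript may count in both. TIR2, a cell wall mannoprotein of cold and low oxygen, had 95.8, 95.6 and 32.0 CPM in HH50 and 28.5, 32.2 and 24.7 CPM in HH115, against 29.8 and 31.4 CPM in the ancestor. GIN4, a kinase of septin assembly, had 288, 222 and 59.7 CPM in HH50 and 73.2, 45 and 38.4 CPM in HH115, against 54.1 and 40.5 CPM in the ancestor. BSC1 did not keep its direction in replicate 3, with 30.3, 41.2 and 8.21 CPM in HH50 and 6.73, 7.27 and 25.9 CPM in HH115, against 12.1 and 9.60 CPM in the ancestor. A further 1381 genes called in HH50 alone and 88 in HH115 alone were not told apart between the lines by the direct test.

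The label euploid was set against expression along the chromosomes. Median centred log2 levels of the 16 nuclear chromosomes ranged from -0.17 to 0.14 over all 8 libraries. In windows of 20 neighbouring genes, 0 of 5431 had all 3 colonies of a line shifted by 0.5 or more against the other 5 libraries, in HH50 or in HH115. The most extreme window of HH115 lay at the left end of chromosome VI (chrVI:836-44392), with medians of -0.24, -0.26 and -0.21 in HH115 beside 0.55, 0.43 and 0.09 in HH50. None of these values goes against the label. No gene had 0 counts in all colonies of a line with at least 30 counts in the ancestor, or the reverse.

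The genes of the labelled alleles were compared between lines and ancestor. HIS3 had 0.13, 0 and 0 CPM in HH50, 0.22, 0 and 0 CPM in HH115 and 0 and 0 CPM in the ancestor, and his3-delta-D200 is a deletion allele. URA3 was read, at 46.4, 19.3 and 51.2 CPM in HH50 and 38.3, 27.7 and 72.5 CPM in HH115, against 79.4 and 40.2 CPM in the ancestor. ADE2, LYS2 and LEU2 were also read in all 8 libraries, with LEU2 at 181, 227 and 741 CPM in HH50 and 289, 148 and 671 CPM in HH115, against 902 and 573 CPM in the ancestor. LEU2 and ADE2 thus followed the split by colony, and HO stayed between 0.90 and 4.74 CPM.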

How the data were processed

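Per the labels, libraries were stranded and single-end. Per the submitters' processing notes, tools named were Trim Galore 0.4.4, TopHat2 2.1.1, HTSeq 0.6.1pl and Cufflinks 2.2.1 with build sacCer3; whether strand was used in counting is not stated in them. The authors deposited raw read counts per gene for each library and FPKM tables. Features were paired with RefSeq genes for 6086 of 7126 names. Levels are CPM of reads in genes, scaled by TMM for the 8 compared libraries. The main test was edgeR 4.0.16's quasi-likelihood test (robust, filterByExpr, Benjamini-Hochberg, threshold 0.05), 1 mean per group, checked on simulated data. Shared genes were called in both lines in 1 direction; private genes were called in 1 line and between the lines, not in the other. DESeq2 1.42.0, limma 3.58.1 and other settings served as alternatives. No label says that colonies were separate cultures beyond being separate colonies, so p-values measure the spread between colonies.

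The genes, lists (46) and tests were chosen with earlier results of these data known. Named genes were the 12 shared rises and 12 shared falls and the 8 private rises and falls of each line with the largest differences at a mean of at least 10 CPM, the labelled alleles, and up to 4 members a list by smallest adjusted p. As the main test called none, shared and private genes were named from the test without replicates 3, and genes whose groups do not overlap were added after their values were seen. Same-numbered colonies of both lines deviated together (correlations 0.488, 0.28 and 0.636). HH50 replicate 2 and HH115 replicate 1 also did, at 0.545, and HH50 replicate 1 and HH115 replicate 2 at 0.163. Replicate 3 of 1 line and replicates 1 and 2 of the other lay between -0.664 and -0.286. Replicates 3 were thus set apart. Deviations are taken from the mean of each group, so those of replicates 1 and 2 together mirror that of replicate 3. These values therefore cannot decide whether numbers 1 and 2 pair the lines, which was not tested. With the replicate number as a block, 0 genes were called between the lines. Each ancestor run 2 count file matched the other replicate's deposited FPKM column better than its own (r 0.851 and 0.879 against 0.722 and 0.689), so their order differs between files; it enters the replicate blocks but not the group means. Counts of replicates differed by far more than sampling noise (chi-square per degree of freedom of at least 60.22).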

Additional observations from a re-analysis of the deposited data

Results flagged for a closer look

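In 8 genes every library of 1 line lay above both ancestor run 2 libraries and every library of the other line below both. In 3 of them (0.0494% of those tested) HH50 was the higher line, and HH50 minus HH115 was 1.87 on the log2 scale in PFK27, 0.55 in TIM18, a protein of mitochondrial import, and 0.44 in PCL7, a Pho85 cyclin. In 5 (0.0823%) HH115 was the higher line, and the difference was -0.85 in AGA1, the anchor of a-agglutinin, -0.80 in YDR209C, -0.64 in VMA22, an assembly factor of the vacuolar ATPase, -0.48 in EXP1 and -0.33 in KXD1. AGA1 had 21.6, 27 and 27.1 CPM in HH50 and 36.7, 63.1 and 36.3 CPM in HH115, beside 32.8 and 34.2 CPM in the ancestor. None passed the direct test of the difference, with an adjusted p of 0.8549 each by edgeR.

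Outside the gene counts, 68.39% of the reads of HH115 replicate 3 did not align uniquely, the highest share of the 8 libraries, beside 33.90% and 40.36% in ancestor run 2.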

How the results depend on the processing

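The counts of genes called differed with the libraries kept, the ancestor run used and the model, as these values show. With DESeq2, 11 genes were called in HH50, 4 in HH115, 6 in both lines and 10 between the lines, with 2 shared and 1 private to HH115. Without replicate 3 of both lines (chosen after seeing the data), the counts were 1899, 597, 1605 and 13, with 508 shared, 10 private to HH50, 1 private to HH115 and 427 list members called. Run 1 in place of run 2 gave 70, 197 and 375, with 55 shared, and all 68 HH libraries gave 173 in HH50. On log2(FPKM + 1), limma called 2 genes in HH115, 1 in both lines and 4 between the lines, with 2 private to HH115. On log2(FPKM + 0.1) it called 1, 3, 1 and 4, with 1 private to HH50 and 3 private to HH115. The share of reads not aligned uniquely as a covariate gave 1 gene in HH50, line sums as replicates gave 310 in both lines, and replicate 3 of both lines alone gave 1. Leaving out 1 replicate gave 0 to 195 genes in HH50, the highest without HH50 replicate 3, and 0 in HH115, both lines and HH50 minus HH115. For the lines named SC it gave 1 to 54, the highest without ancestor run 1 replicate 1. Chromosome medians reached 0.2069 over genes with at least 50 CPM, and 3 genes were at 0 in 1 line or the ancestor at a sum of at least 10 counts. The cause of these shifts was not tested.

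Between lines and ancestor, deviations of libraries with the same replicate number correlated between -0.07 and 0.35. For libraries with the same number at the end of the title, the values were 0.35, 0.09, 0.23 and 0.11. The deviations of the ancestor libraries mirror each other, and the order of these libraries is uncertain. These values therefore cannot decide whether either numbering marks libraries handled together, which was not tested. With the replicate block, 1842 genes were called in HH50, 761 in HH115, 1627 in both lines and 0 between the lines, with 719 shared, and the block over the 6 line libraries gave 0 between the lines. The block by title ending (added after seeing the data) gave 0 in all 4 comparisons.

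Of 115 gene results followed, the sign turned only under 5 settings, 83 times in all, and each value is the log2 difference of both lines from the ancestor. With run 1 in place of run 2 it was -0.46 for FIT2, -1.56 for FIT3, -0.63 for ZRT1, -0.0051 for ATG41, -0.69 for MAM33, -0.087 for SAS5, 0.57 for ANB1, 0.14 for UGP1, 0.59 for DAK1, -0.34 for YIG1, -0.53 for CSM4, -0.86 for SFC1, -0.66 for YML089C, -2.24 for HXT6, -0.14 for IDP2, -1.51 for MIN7, -1.12 for YPL185W, -0.14 for SPG4, 0.59 for IMD2, 5.59 for FRM2, 1.23 for MAE1, 1.93 for INA1, 2.02 for ENO2, 3.17 for YBR012W-B, 2.28 for ADE5,7, 1.51 for YBL005W-B, 2.39 for GPP1, 2.66 for YNL284C-B, 1.49 for BAT1, -1.24 for COX8, -1.27 for COX5A, -0.91 for CYC1, -0.80 for SDH2, -0.028 for ADY2, -1.42 for ADH2, 2.25 for ADH1, 0.087 for PFK2, 0.82 for ADE1, 0.76 for ADE12, -0.20 for FET3, -0.42 for ZRT3, -0.91 for ZAP1, 0.50 for TSL1, 0.64 for TPS3, 0.36 for GSY2, 0.55 for EUG1, 1.11 for MPD1, 0.62 for ERG24, 0.64 for CLN1, 0.48 for RNR1, 1.15 for CTT1, -0.086 for RSM19 and -0.49 for MRPL6. With all 5 HH ancestor libraries it was -0.90 for FIT3, -0.055 for ZRT1, -0.12 for MAM33, -0.16 for SFC1, -1.53 for HXT6, -0.82 for MIN7, -0.44 for YPL185W, 0.012 for YBR012W-B, 0.058 for BAT1, -0.59 for COX8, -0.59 for COX5A, -0.24 for CYC1, -0.16 for SDH2, -0.81 for ADH2, -0.45 for ZAP1 and -0.048 for MRPL6. With replicate 3 of both lines alone it was -0.077 for JEN1, -0.34 for SFC1, -0.19 for HXT6, -0.21 for YPL185W, 0.48 for MAE1, 0.094 for YBR012W-B, 0.22 for YBL005W-B, 0.081 for YNL284C-B, 0.40 for BAT1, -0.16 for SDH2, -0.97 for ADY2 and -1.04 for ADH2. Leaving out 1 replicate gave -0.20 to 1.97 for ADH2, the lowest without HH115 replicate 2, and the block by title ending gave -0.096 for ADH2.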
